A study of Mus musculus with 8 samples.

Results

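The mitochondrial ribosomal proteins were taken as the rows of the deposited expression table whose symbol begins with Mrpl or Mrps followed by a number, which gave 79 of the 15867 genes listed. They were measured in macrophages carrying the surface protein F4/80, selected from the adipose tissue of mice fed a high-fat diet for 20 weeks. The 4 control libraries had the genotype Mirc11fl/fl Mirc22fl/fl Lyz2+/+, and the 4 knockout libraries had Mirc11fl/fl Mirc22fl/fl Lyz2Cre/Cre. Mirc11 and Mirc22 are microRNA clusters, each with a miR-23, a miR-27 and a miR-24 gene, and both groups carried the loxP-flanked alleles. Cre was expressed from the Lyz2 locus, which is active in myeloid cells, on both alleles, so loss of the clusters and replacement of Lyz2 cannot be told apart in this design. The comparison asked whether transcripts of the mitochondrial ribosome differed in level between knockout and control adipose tissue macrophages.

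Mitochondria translate their own small set of messenger RNAs, which encode hydrophobic subunits of the respiratory chain complexes and of ATP synthase. The ribosome that does this has a large and a small subunit, whose RNAs come from mitochondrial DNA, while its proteins are encoded in the nucleus, made in the cytosol and imported. Part of the proteins have relatives in the bacterial ribosome and the rest are specific to mitochondria.

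The symbols did not match the particle in every case. By structure, 51 members belong to the large subunit, 29 of them with bacterial relatives and 22 specific to mitochondria. Mrps30 and Mrps18a are named for the small subunit but sit in the large one. The small subunit accounts for 26 members, 16 with bacterial relatives and 10 specific to mitochondria. Of the other two, Mrps36 is now known as a component of the 2-oxoglutarate dehydrogenase complex, and Mrpl23-ps1 is annotated as a processed pseudogene.

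Lyz2, which encodes lysozyme and is interrupted by Cre, served as the check of the labels. Its normalized counts were 182286, 156727, 159627 and 204853 in the controls and 273, 174, 201 and 184 in the knockouts, each in the order of replicates 1 to 4. Libraries held 31789395 to 46621080 reads over the listed genes. All 8 of the macrophage markers examined were measured, and 5 of them, Lyz2 included, were called lower in the knockout (median log2 difference -0.46). Markers of other adipose tissue cells were present too. The summed level of 7 endothelial markers was 43329.7 to 79853 in control libraries and 72807 to 104321 in knockout libraries, and that of 7 fibroblast and preadipocyte markers was 94057 to 161145 and 128127 to 199164. All 14 of these genes had a positive difference and none passed the test. The same held for the 5 adipocyte (median log2 difference 0.50), 6 T and NK cell (0.70), 4 B cell (0.53), 4 dendritic cell (0.53) and 3 erythroid markers (1.00), and 4 of 5 mesothelial and 1 of 2 measured neutrophil markers were positive. The part of these cells in the results below was not tested. In bulk RNA, fewer cells of a type and less RNA per cell cannot be told apart.

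The mitoribosomal transcripts were at nearly the same level in both genotypes. Each of the 79 passed the filter on low values (a mean normalized count of at least 10), and the lowest had 208 reads in its poorest library. One member, Mrps6, rose in the knockout with limma, and 0 fell, beside 573 of 15862 genes tested across the table (3.61%), of which 196 were higher (1.24%). Calls here are at an adjusted p below 0.05 (Benjamini-Hochberg over all genes tested). At an unadjusted p below 0.05 there were 3 members (3.80%), Mrps6, Mrps33 and Mrpl38, all higher in the knockout, beside 21.2% of all genes. The 4 knockout values lay outside the range of the 4 control values for 3 members (3.80%), Mrps6, Mrpl38 and Mrpl11, again all higher, beside 13.7% of all genes. Both shares lay below the background of the table.

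The median log2 difference, knockout minus control, was 0.01 over the 79 members and 0.00 over all genes, and 48 members were on the positive side and 31 on the negative. The positive count was 61 with each library scaled to the same total, 33 after quantile normalization and 33 without control replicate 3. The differences ran from -0.18 for Mrps36 to 0.29 for Mrps6. Their median size without regard to sign was 0.06, beside 0.14 over all genes. It was 0.05 over the cytosolic ribosomal proteins and 0.06 over the nuclear-encoded respiratory chain subunits, lists described further on. The sign of a median this small depended on the scaling: it was 0.07 when each library was scaled to the same total, which moved the median of all genes to 0.06, and -0.01 after quantile normalization.

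The precision of the data set a limit on how large a difference could have gone unseen. The 95% interval of the difference lay within 1.25-fold in either direction for 70 of the 79 members (88.6%), beside 39.0% of all genes, and within 1.5-fold for all 79, beside 64.0% of all genes. The first count was 56 with scaling to equal totals, and the second stayed at 79. The 9 members whose interval reached past 1.25-fold were Mrps6, Mrps16, Mrps22, Mrps23, Mrps28, Mrps31, Mrps36, Mrpl23 and Mrpl55. The median coefficient of variation within the groups was 5.90% for the members and 10.02% for all genes. All genes include those with means down to 10, while member means ran from 245 to 2104. Such precision was not particular to the members. Of the cytosolic ribosomal proteins 94.8% had an interval within 1.25-fold, and of the nuclear-encoded respiratory chain subunits 90.0%. The coefficients of these 2 lists were 5.24% and 5.31%. The plot of differences by subunit shows how closely the members cluster around 0.

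**Figure D1:**
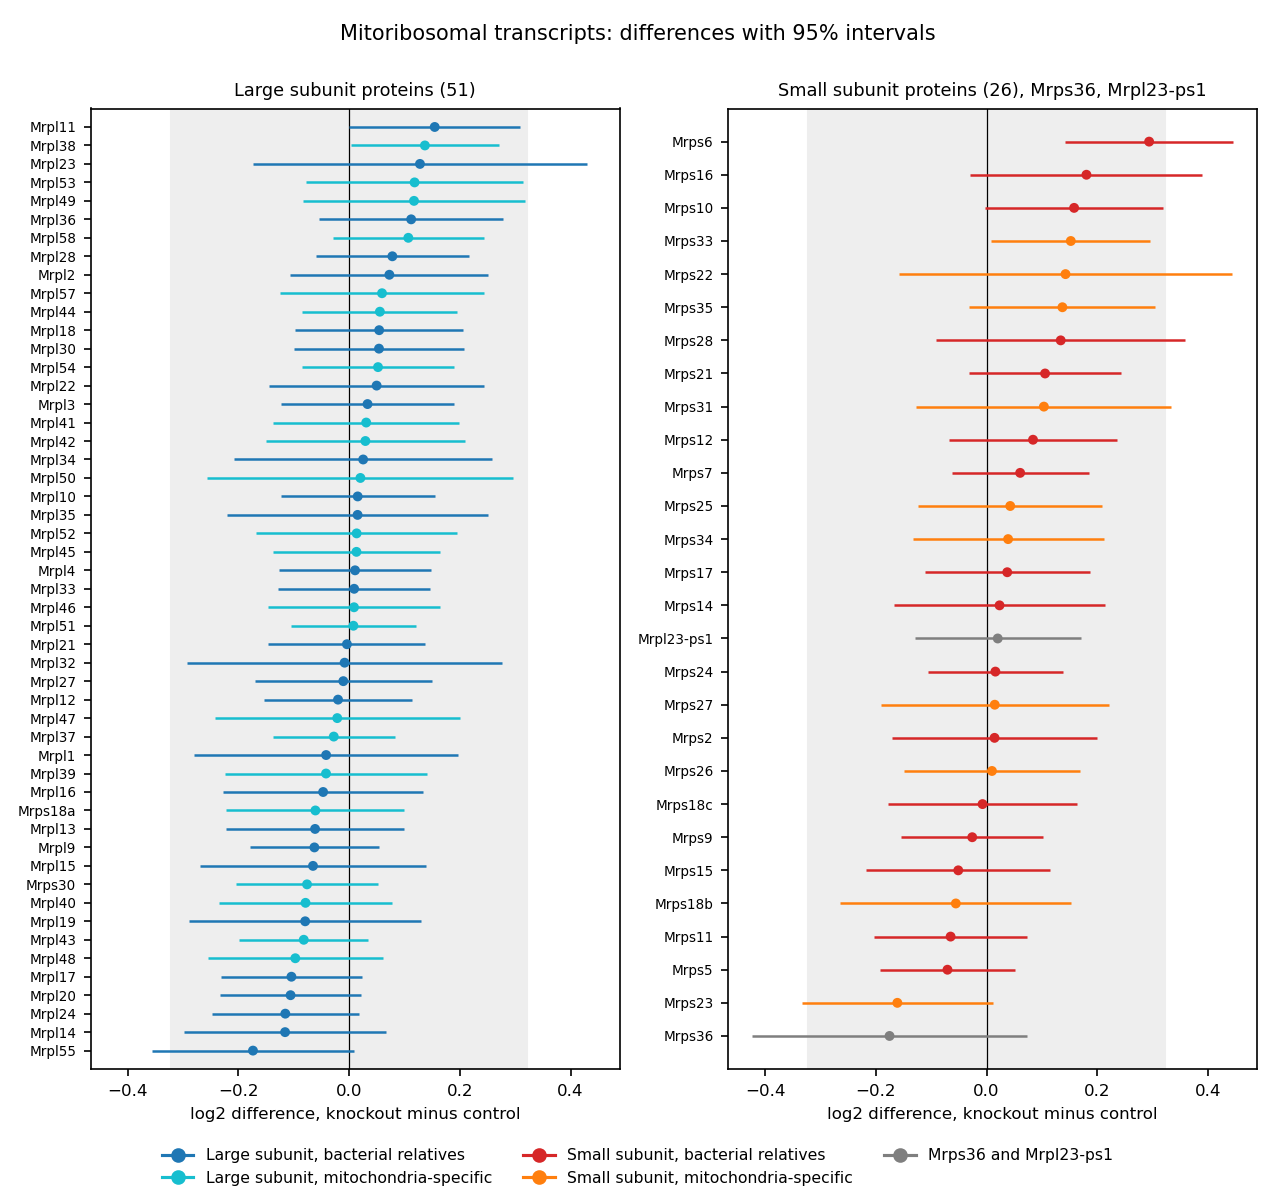
Difference in log2 level (knockout minus control) of each of the 79 members, with its 95% interval from limma, for the large subunit (left) and for the small subunit, Mrps36 and Mrpl23-ps1 (right). The grey band marks 1.25-fold in either direction, and the interval of Mrps6 lies wholly above 0 from 0.14 to 0.45.

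Small p-values were less frequent among the members than across the table. Of the members, 15.2% had a p of at most 0.1, while 30.2% of all genes did. The other bins each held 5.06% to 17.7% of the members.

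**Figure D2:**
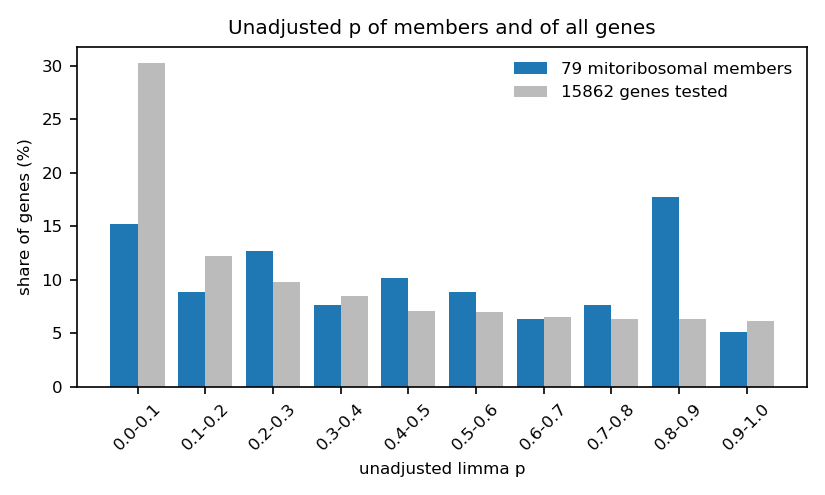
Share of genes in 10 equal bins of the unadjusted limma p, for the 79 members (blue) and the 15862 genes tested (grey). The first bin holds 15.2% of the members and 30.2% of all genes.

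Mrps6 encodes a small subunit protein with a relative in the bacterial ribosome. Its normalized count was 745, 760.3, 729.7 and 651 in the controls and 890.2, 835, 899 and 909 in the knockouts. All 4 knockout libraries lay above all 4 controls. The means were 721 ± 48.7 (SD, n = 4) and 884 ± 33.2 (SD, n = 4), a 1.23-fold difference with a 95% interval of 1.10 to 1.36. On the log2 scale the difference was 0.29 with a standard error of 0.07 and a limma adjusted p of 0.0491. The call lay at the edge of the threshold. It was lost when any 1 of the 8 libraries was left out, with limma adjusted p from 0.0595 to 0.125 and differences from 0.25 to 0.32, so the size of the difference was kept while the call was not. Quantile normalization (0.0667), limma without trend (0.0748) and a fit with the replicate number as a block (0.263) also ended the call. Count models on the recovered reads gave adjusted p of 0.0451 (edgeR) and 0.00448 (DESeq2). The authors' deposited DESeq2 table gave 0.00448 too, but this is the same test on the same data and not a separate result. Over all genes DESeq2 made 1557 calls, beside 573 with limma.

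The Mrps6 gene lies at chr16:92058270-92112227 on the plus strand of mm10 and overlaps Slc5a3 (chr16:92058322-92087473, same strand), which encodes a sodium-coupled myo-inositol transporter. The start sites of the pair are so close that their RefSeq promoter windows, each 250 bases before to 50 bases after the start, share 286 bases. Of the words of 31 bases in the annotated Mrps6 transcripts, 33.8% also occurred in transcripts of another gene, most of them of the predicted gene Gm49711. Slc5a3 had normalized counts of 538, 459, 489.9 and 355 in the controls and 550.1, 556, 528 and 639 in the knockouts. Its groups overlapped, since control replicate 1 lay above knockout replicate 3. The log2 difference of Slc5a3 was 0.32 with a standard error of 0.13 and a limma adjusted p of 0.202. How far reads from the shared part were divided between the genes was not tested. The shared start region is printed as the promoter window of Mrps6 (RefSeq, GRCm38.p6, chr16:92058086-92058385, plus strand), in which none of the motifs described further on was found.
Mrps6 promoter: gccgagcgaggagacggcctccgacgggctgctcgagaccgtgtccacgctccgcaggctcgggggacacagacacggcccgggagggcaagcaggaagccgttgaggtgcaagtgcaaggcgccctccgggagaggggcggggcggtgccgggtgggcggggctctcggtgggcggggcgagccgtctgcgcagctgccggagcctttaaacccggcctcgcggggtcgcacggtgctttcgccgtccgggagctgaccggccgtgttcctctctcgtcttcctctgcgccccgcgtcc

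Among the large subunit members, Mrpl11 encodes the protein of the ribosome's stalk base, next to which the translation factors bind. Its normalized count was 769, 788, 698 and 678 in the controls and 801, 860.4, 795 and 804 in the knockouts. Every knockout library was above every control, with knockout replicate 3 only just above control replicate 2. The log2 difference was 0.15 with a standard error of 0.07 and a limma adjusted p of 0.236.

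Mrpl38 encodes a mitochondria-specific protein of the large subunit. Normalized counts were 801, 865, 771 and 802 in the controls and 874, 936, 865 and 883 in the knockouts. The groups did not overlap, although knockout replicate 3 and control replicate 2 were separated by less than 1 normalized count. The difference of 0.14 on the log2 scale (standard error 0.06) had a limma adjusted p of 0.225.

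Mrps33, a mitochondria-specific protein of the small subunit, had normalized counts of 968, 890.4, 855 and 874 in the controls and 969, 980.2, 1073 and 963 in the knockouts. Control replicate 1 lay within the knockout range. The log2 difference was 0.15 (standard error 0.06, limma adjusted p of 0.212). Mrps10, which has a bacterial relative in the head of the small subunit, had values of 657, 623, 579.7 and 601 in the controls and 655, 698, 746 and 649 in the knockouts, again with control replicate 1 inside the knockout range. Its log2 difference was 0.16 and its limma adjusted p 0.243. Mrps16 had the second largest log2 difference of the members, 0.18 (standard error 0.09, limma adjusted p of 0.303), with controls at 568, 443, 451 and 538 and knockouts at 562, 565, 580.3 and 548. The controls of Mrps16 spread widely, and control replicate 1 exceeded 3 of the 4 knockout libraries.

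The members with the smallest p on the lower side did not pass the test either. Mrpl55, in the large subunit, had normalized counts of 507, 514, 513 and 474 in the controls and 424, 486, 472 and 403 in the knockouts. Only control replicate 4 fell among the knockout values, and the log2 difference was -0.17 (standard error 0.08, limma adjusted p of 0.257). Mrps23, a mitochondria-specific protein of the small subunit, had 1251, 1335, 1248 and 1098 in the controls and 1044, 1029, 1166 and 1168 in the knockouts. Here too control replicate 4 was the low control, and the log2 difference was -0.16 (standard error 0.08, limma adjusted p of 0.267). Mrpl24, Mrpl20, Mrpl17 and Mrpl43 had log2 differences of -0.12, -0.11, -0.10 and -0.08, with overlapping groups and limma adjusted p of 0.299 to 0.403. On the positive side, Mrps35 (0.14), Mrpl58 (0.11) and Mrps21 (0.11) had overlapping groups and limma adjusted p of 0.328 to 0.356. Mrpl58 encodes a peptidyl-tRNA hydrolase, built into the large subunit, that releases chains from stalled ribosomes.

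**Figure D3:**
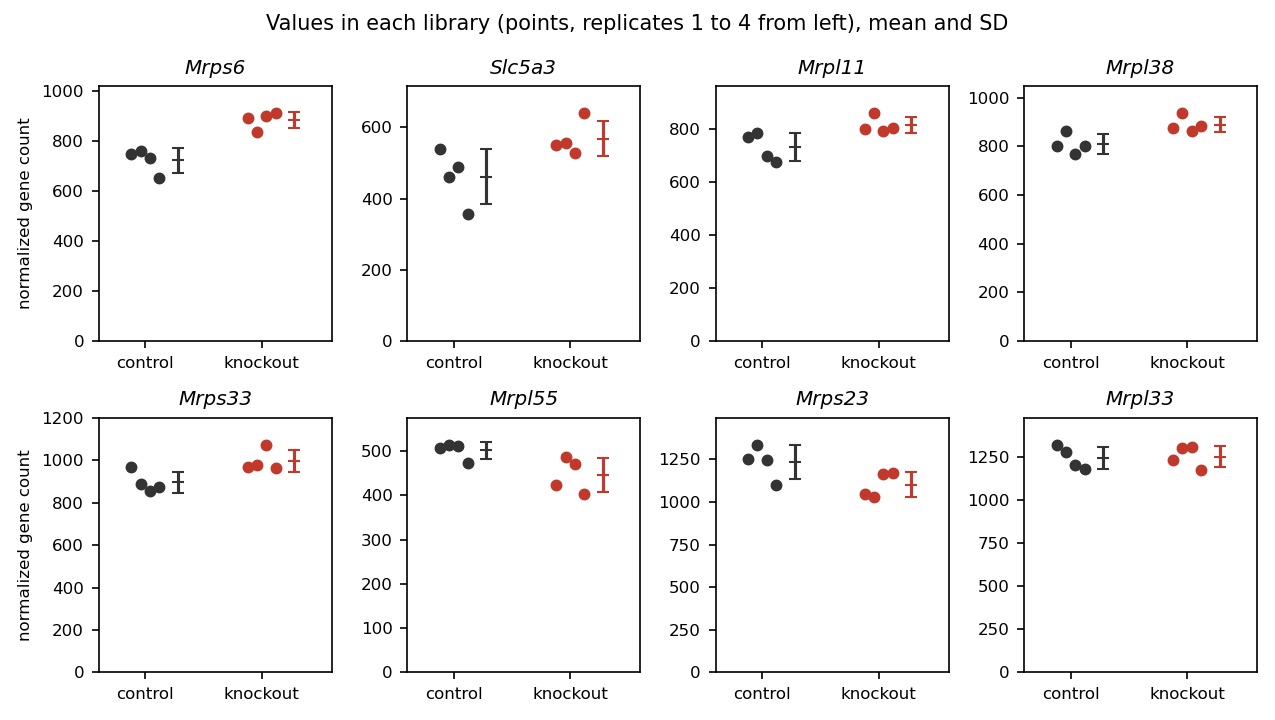
Normalized count of 8 genes in each library (points, replicates 1 to 4 from left to right in each group) with the mean and SD of the 4 libraries beside them. In the Mrps6 panel all 4 knockout points are above 835 and all 4 control points below 761, while the Mrpl33 panel shows groups that coincide.

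The medians of the structural classes lay close together. The median log2 difference was -0.00 for the large subunit proteins with bacterial relatives (14 of 29 positive) and 0.01 for those specific to mitochondria (14 of 22 positive). For the small subunit it was 0.03 for the proteins with bacterial relatives (11 of 16 positive) and 0.04 for the mitochondria-specific ones (8 of 10 positive). Of these classes only the small subunit proteins with bacterial relatives held a call, that of Mrps6. By symbol, the 50 Mrpl members had a median of 0.01 and the 29 Mrps members 0.02. Leaving out Mrpl23-ps1 and Mrps36 kept the median at 0.01 and the count at 1 call. Mrps36 had 684, 560.0, 542 and 514 in the controls and 454, 476, 566 and 536 in the knockouts, an overlap set by knockout replicates 3 and 4 (log2 difference -0.18, limma adjusted p of 0.401).

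Levels between members were compared as normalized counts per kilobase, with the median length of the annotated transcripts as the length. Over the 79 members the median was 683 per kilobase and the range 87.7 to 2955. The highest were Mrps21 (2955), Mrpl33 (2613) and Mrpl20 (2161), and the lowest were Mrpl47 (87.7), Mrpl1 (96.9) and Mrpl35 (113). The class medians were 869 and 564 per kilobase for large subunit proteins with bacterial relatives and specific to mitochondria, and 661 and 372 for the same classes of the small subunit, with ranges that overlapped widely. Lengths differ between annotated transcripts of 1 gene, so this order depends on which transcript the cells make. In normalized counts, which also depend on length, Mrpl24, Mrpl4 and Mrpl9 had the most and Mrpl23, Mrpl47 and Mrpl1 the fewest.

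**Figure D4:**
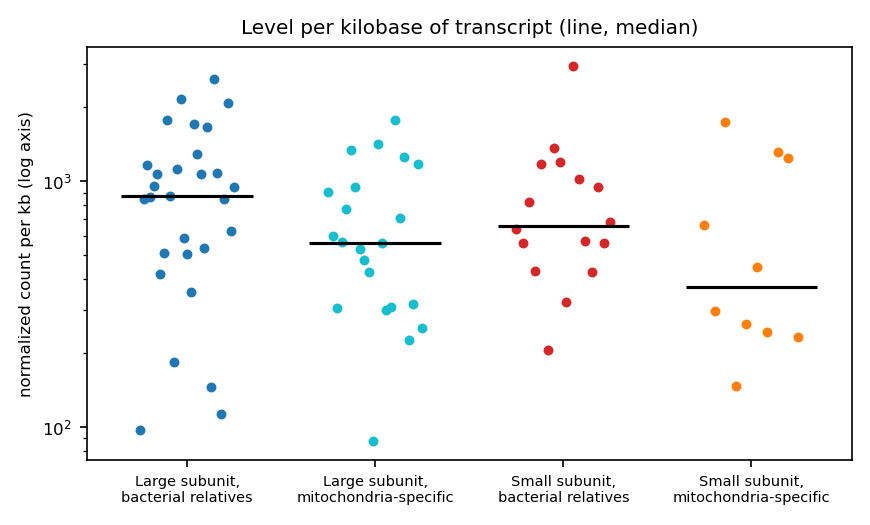
Normalized count per kilobase of transcript of each member (points, log axis) in the 4 structural classes, over all 8 libraries, with the class median as a line. Medians run from 372 in the mitochondria-specific small subunit proteins to 869 in the large subunit proteins with bacterial relatives.

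Mrpl33, among the highest per kilobase, lay near the middle of the members in its difference. Its normalized counts were 1321, 1279, 1201 and 1180.0 in the controls and 1230.3, 1300.0, 1307 and 1175 in the knockouts. The fold difference was 1.01 with a 95% interval of 0.915 to 1.11. Mrpl4, one of the proteins with the most reads, had means of 1694 ± 62.9 (SD, n = 4) and 1709 ± 115 (SD, n = 4), a fold difference of 1.01 with an interval of 0.916 to 1.11. The signs of both Mrpl33 and Mrpl4 changed with the libraries included.

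The widest spread within groups belonged to Mrps22, Mrpl23 and Mrpl32. Mrps22 had 432, 341, 305 and 279.5 in the controls and 338, 369, 392.2 and 380.4 in the knockouts, and its control replicate 1 was the highest of all 8 values. Mrpl32, whose product is processed by a mitochondrial protease before it joins the ribosome, had 521, 374, 421 and 450.2 in the controls and 369, 505, 435 and 445 in the knockouts. Its fold interval ran from 0.816 to 1.21. Mrpl23 shared 53.0% of its words of 31 bases with other transcripts, chiefly of Mrpl23-ps1, which shared 95.6% in turn, so reads could be assigned to either. Mrpl23 averaged 233 and 257 and the pseudogene 851 and 863 in control and knockout libraries. Their sum was 1084 ± 33.8 (SD, n = 4) and 1120.3 ± 74.9 (SD, n = 4). Besides this pair, over 50% of words were shared for Mrpl53, Mrps25, Mrps18b, Mrps34 and Mrpl27, with words matched on either strand. The levels of these members are therefore uncertain, and 22 members shared none. For Mrps25, Mrps18b and Mrps34 the gene sharing most words overlaps on the opposite strand. Such sharing matters if reads were counted without regard to strand, which is not given.

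The libraries of a group also differed in the level of the whole list. Averaged over the 79, the log2 deviation from the 8-library mean was 0.06, 0.01, -0.06 and -0.04 in the controls and -0.02, 0.02, 0.05 and -0.01 in the knockouts. The group means differed by 0.02, less than the SD between libraries of a group (0.05 in controls, 0.03 in knockouts), and the groups overlapped. Control replicate 1 was the highest control for 44 of the 79 members (55.7%), beside 31.5% of all genes, and control replicate 3 was the lowest for 38 (48.1%), beside 18.6%. The members took 0.167% to 0.191% of the reads of a library.

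The other genes of mitochondrial translation held 0 calls with limma. The list of mitoribosomal proteins whose symbols fall outside the rule also held a ribosome-binding protein, Oxa1l. It had 6 measured genes and a median log2 difference of -0.05, which turned to 0.01 with scaling to equal totals. Dap3, a GTP-binding protein of the small subunit, had 1044, 1144, 1029 and 1098 in the controls and 1216, 1166, 1183 and 1242 in the knockouts, without overlap (0.16, limma adjusted p of 0.152). Oxa1l, the inner membrane insertase that binds the ribosome at its exit tunnel, did not overlap in the other direction (-0.17, limma adjusted p of 0.187), with controls at 1717, 1701, 1827 and 2038 and knockouts at 1656, 1585, 1629 and 1606. The 28 mitoribosome assembly genes had a median of 0.03, which turned to -0.02 after quantile normalization. The smallest p among them was that of Ddx28, an RNA helicase of large subunit assembly (855, 729, 714 and 822 in controls, 617, 622, 693 and 651 in knockouts). Its log2 difference of -0.27 had a limma adjusted p of 0.0996 and a DESeq2 adjusted p of 0.0354.

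Among the 14 translation factors (median 0.03), Mrrf, which recycles the ribosome after termination, had 755, 955, 831 and 709 in the controls and 1022, 966, 932 and 1108 in the knockouts. Its log2 difference was 0.32 and its limma adjusted p 0.120. Tufm, the elongation factor that delivers aminoacyl-tRNA and the one with the highest counts of the list, had a difference of 0.01 whose sign changed with the libraries included. The 20 mitochondrial aminoacyl-tRNA synthesis genes and the 20 genes of mitochondrial DNA transcription and RNA processing had a median of 0.05 each, and that of the second list turned to -0.02 after quantile normalization. Averaged over the synthesis genes, the deviation was -0.044 to -0.0045 in the controls and 0.0045 to 0.053 in the knockouts, without overlap. The groups stayed apart with scaling to equal totals but overlapped after quantile normalization. At an unadjusted p below 0.05 these lists held 2 of 6, 2 of 28, 1 of 14, 1 of 20 and 1 of 20 genes in the order given, beside 21.2% of all genes. The edgeR test on the recovered reads called 0 genes of these lists, and DESeq2 called 1, Ddx28, beside 556 and 1557 of all 15862 genes tested. Averaged over the transcription and RNA processing genes, the groups separated only with scaling to equal totals, with the knockouts higher. Averages of the assembly genes separated only after quantile normalization, with the knockouts lower.

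The products and partners of the ribosome were set beside it. The 13 proteins encoded in mitochondrial DNA had a median log2 difference of 0.06 and 0 calls with limma, edgeR or DESeq2 (0 at an unadjusted p below 0.05). That median ran from 0.01 without control replicate 3 to 0.14 without control replicate 1, and it was 0.12 with scaling to equal totals and 0.13 after quantile normalization. Their deviation was 0.24 in control replicate 1 and -0.13 in control replicate 3, the highest and lowest controls in the mitoribosomal list too. The 80 nuclear-encoded respiratory chain subunits had a median of -0.05 with 56 negative, a majority that turned to 46 positive and a median of 0.01 with scaling to equal totals. With limma and edgeR 1 of the 80 was called, and with DESeq2 3, beside 573, 556 and 1557 of all 15862 genes tested. At an unadjusted p below 0.05 there were 2 higher and 4 lower, and the groups did not overlap for 1 higher and 4 lower. Ndufa3, a subunit of complex I, rose from 1299, 1492, 1387 and 1485 in the controls to 1917, 1759, 1735 and 1742 in the knockouts (0.34, standard error 0.06, limma adjusted p of 0.0258). That call was lost without control replicate 3 or without any 1 of the knockout replicates, with limma adjusted p of 0.0556 to 0.0762. Sdhb, the iron-sulfur subunit of complex II, had 3474, 3376, 3116 and 3413 in the controls and 2901, 2879, 3076 and 2638 in the knockouts, without overlap. Its log2 difference of -0.22 (standard error 0.06) had a limma adjusted p of 0.0832 and a DESeq2 adjusted p of 0.0185. The 77 cytosolic ribosomal proteins had a median of 0.05 with 66 positive and 0 calls with limma, edgeR or DESeq2. At an unadjusted p below 0.05 there were 5 higher and 1 lower (7.79%, beside 21.2% of all genes). For 7 of them, all higher, the groups did not overlap (9.09%, beside 13.7%). The cytosolic median was 0.11 with scaling to equal totals and 0.12 after quantile normalization, with 76 positive in each. Without control replicate 3 it was 0.03 with 55 positive.

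The 12 regulators of mitochondrial biogenesis had a median of -0.07 (-0.01 with scaling to equal totals) with 9 negative and 0 calls with limma, edgeR or DESeq2. Of these genes 2 were lower at an unadjusted p below 0.05 (16.7%, beside 21.2% of all genes). Esrra, a nuclear receptor that activates genes of mitochondrial metabolism, had 2738, 2751, 2759.8 and 2969 in the controls and 2496, 1693, 2458 and 2277 in the knockouts, without overlap (-0.35, limma adjusted p of 0.134). Ppargc1b, a coactivator of such receptors, had 277, 302, 369 and 378 in the controls and 335, 203, 264 and 219 in the knockouts, with overlap (-0.39, limma adjusted p of 0.234). Averaged over the list, the deviation was 0.02 to 0.12 in the controls and -0.11 to -0.00 in the knockouts, without overlap. The groups overlapped with scaling to equal totals. After quantile normalization they stayed apart, at 0.026 to 0.10 in the controls and -0.11 to -0.022 in the knockouts. Those of the mitoribosomal members overlapped with each of the 3 scalings. The difference between these lists was not tested.

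**Figure D5:**
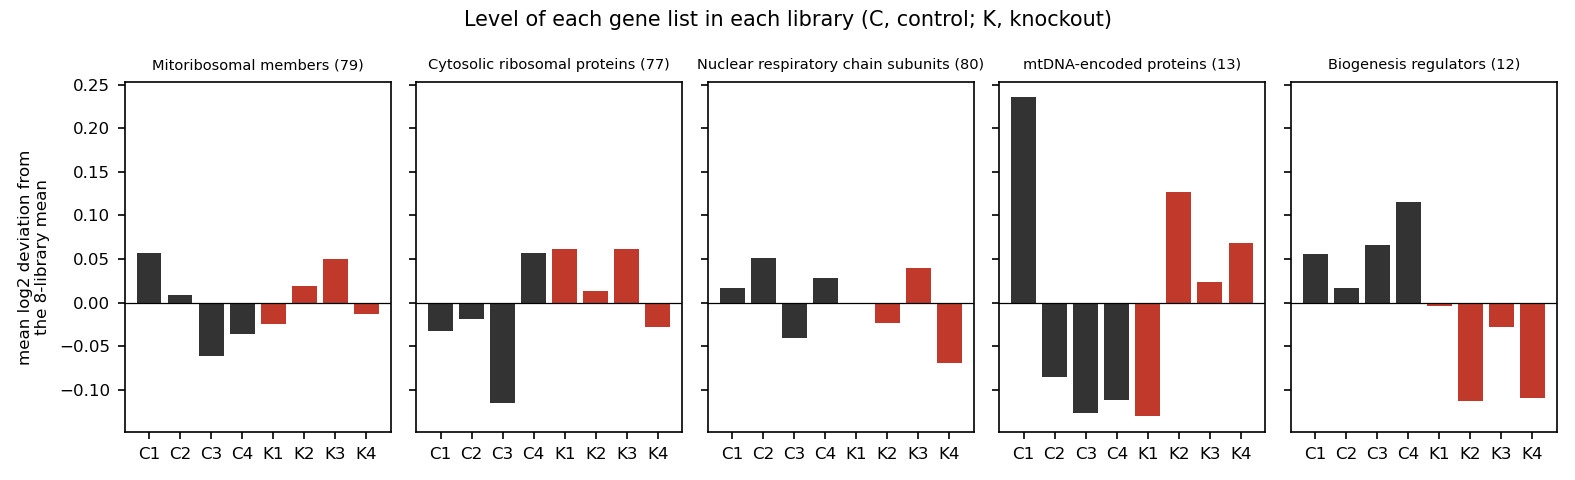
Mean log2 deviation from the 8-library mean of 5 gene lists in each library, control replicates (C1 to C4, dark) and knockout replicates (K1 to K4, red). The mitoribosomal members stay between -0.06 and 0.06 with overlapping groups, and the regulators of mitochondrial biogenesis are above 0 in the controls and below 0 in the knockouts on the deposited scaling.

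Promoter sequences were examined for features that the members share. The RefSeq table (GRCm38.p6) held a window for 69 members. Core motifs of the factors best known for this gene class were searched on both strands: GCGCATGC for NRF1, CCGGAAG for the ETS family that includes the GA-binding protein, and AANATGGC for YY1. The NRF1 core was in 8 windows (11.6%, beside 5.29% of all tested genes with a window), the ETS core in 26 (37.7% beside 17.7%) and the YY1 core in 21 (30.4% beside 9.08%). At least 1 motif was found in 42 windows (60.9% beside 28.4%). A match describes sequence and not binding. The windows reach 50 bases past the start site, and the YY1 core contains ATG. Some of its matches there may be translation starts, which was not examined. The 42 members with a motif and the 27 with a window but no motif both had a median log2 difference of 0.01. The 1 call, Mrps6, was in the second set.

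Windows of 2 members are shown to make these matches visible, with the motif letters in capitals. That of Mrpl33 (chr5:31613701-31614000, plus strand) holds the NRF1 core followed by the ETS core near the start site, and its gene had the fold difference of 1.01 given above. That of Mrpl11 (chr19:4962056-4962355, plus strand) holds the YY1 core just after the start site.
Mrpl33 promoter: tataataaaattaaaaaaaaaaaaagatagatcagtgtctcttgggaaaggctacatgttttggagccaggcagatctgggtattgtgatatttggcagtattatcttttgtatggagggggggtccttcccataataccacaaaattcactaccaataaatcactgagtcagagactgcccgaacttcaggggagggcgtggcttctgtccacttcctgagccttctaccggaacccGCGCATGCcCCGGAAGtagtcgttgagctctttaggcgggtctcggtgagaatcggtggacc
Mrpl11 promoter: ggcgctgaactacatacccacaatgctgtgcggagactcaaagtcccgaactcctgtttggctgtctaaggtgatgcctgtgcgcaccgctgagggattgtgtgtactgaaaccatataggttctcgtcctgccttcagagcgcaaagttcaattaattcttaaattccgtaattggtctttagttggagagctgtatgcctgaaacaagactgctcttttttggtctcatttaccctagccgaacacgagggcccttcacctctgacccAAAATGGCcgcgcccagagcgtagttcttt

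The deleted microRNAs act by pairing of their seed, bases 2 to 8, with sites in the 3′ untranslated regions of messenger RNAs. Mature sequences of 4 of them (RefSeq, GRCm38.p6) are given with the seed in capitals, and miR-23b-3p is named only. The miR-27 pair shares 1 seed.
miR-23a-3p: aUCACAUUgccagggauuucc
miR-27a-3p: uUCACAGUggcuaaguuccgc
miR-27b-3p: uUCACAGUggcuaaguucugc
miR-24-3p: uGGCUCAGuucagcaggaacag

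The longest annotated 3′ untranslated region of 77 members was scanned for 8-base sites of the families, in which the site pairs with the seed and is followed by A. A miR-23 site was found in 1 member (1.30%, beside 7.14% of all tested genes), a miR-27 site in 2 (2.60% beside 6.41%) and a miR-24 site in 7 (9.09% beside 8.77%). The sites are shown with 10 bases on either side and the matched bases in capitals.
Mrpl32 miR-23 site: tttagaagagAATGTGAAgaaaactaga
Mrpl13 miR-27 site: aactctgagaACTGTGAAacccttaaag
Mrps31 miR-27 site: gactaacataACTGTGAAattactttta
Mrpl11 miR-24 site: acagaggaagCTGAGCCAaaggacttca
Mrpl36 miR-24 site: aagaggctgcCTGAGCCAaaaagctctt
Mrpl45 miR-24 site: ttcttacccaCTGAGCCAtctccaacct
Mrps17 miR-24 site: cctgtacccaCTGAGCCAtcctattgac
Mrps25 miR-24 site: atgcccatgtCTGAGCCAcacgaagctc
Mrps35 miR-24 site: ttcttaaccaCTGAGCCAtctcgtttag
Mrps5 miR-24 site: gcctgacccgCTGAGCCActcccaggca

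None of the 10 members with a site was called by limma. Their median log2 difference was 0.04 with 7 positive, and that of the 67 scanned members without one was 0.01 with 40 positive. Mrps15 and Mrpl23-ps1 were not scanned. The 7 members with a miR-24 site had a median of 0.04 and ran from -0.07 for Mrps5 to 0.15 for Mrpl11. Mrpl32, the member with a miR-23 site, was at -0.01, while Mrpl13 and Mrps31, with miR-27 sites, were at -0.06 and 0.10. The longest region need not be the one these cells use, and a match is a description of sequence and not of binding.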

How the data were processed

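Poly(A)-selected RNA libraries of 8 samples (4 per genotype) were analysed. Groups came from the genotype labels and replicate numbers from the titles. The labels call them biological replicates but do not state whether a sample is a single mouse. The p-values therefore describe only the variation among these libraries. The authors deposited normalized gene counts, a signal equal to read counts divided by 1 factor per sample: within 0.01 reads, 100% of values came out whole, and in control replicate 4 the step lies too near 1 to be told from rounding. FastQC, cutadapt, Salmon, DESeq2 and mm10 are named in the submitters' processing notes. The authors' deposited DESeq2 table holds log2 fold changes, standard errors and statistics (score columns) and p-values, per the file headers. Whether reads were counted by strand is not given in the sources.

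Differences were tested with limma 3.58.1 (R 4.3.3; eBayes with trend, two-sided) on log2(value + 1), a scale that understates changes of low genes, over 15862 genes with a mean of at least 10. Alternatives were other pseudocounts, filters and scalings, limma without trend, edgeR 4.0.16 and DESeq2 1.42.0 on recovered reads, a replicate block, and leaving out each library. The fit without Mrpl23-ps1 and Mrps36 and the list levels under other scalings were added after seeing the data. The scripts were tested on simulated data. Promoter and microRNA sequences came from RefSeq, gene positions and transcripts from the GENCODE annotation of mm10. The members and gene lists were chosen with earlier results of these data known. Named members were those past the threshold, the 8 smallest p among the Mrpl and among the Mrps symbols, and those without overlap. The 3 with the most and fewest counts (in all and per kilobase) or the widest spread were named as well. From each related list the rule took those past the threshold, the most abundant gene and the 2 of smallest p. Members in the other sets (sites, shared words, wide intervals) were named after their values were seen.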

Additional observations from a re-analysis of the deposited data

Results flagged for a closer look

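In 10 of the 108 groups of 4 libraries examined, 1 library stood apart from the other 3 by more than Dixon's critical value (95%), where chance flags about 1 group in 20. Among the members, knockout replicate 2 was high for Mrpl11 at 860.4 (others 795 to 804). Knockout replicate 3 was high for Mrpl17 at 1384 (others 1227 to 1247) and for Mrps33 at 1073 (others 963 to 980.2). Control replicate 4 was low for Mrpl9 at 1505 (others 1604 to 1622), and control replicate 3 was low for Mrps35 at 452 (others 508 to 515). In the related lists, control replicate 1 was high for Lrpprc at 1982, for mt-Co1 at 279816 and for mt-Cytb at 78840.4. Control replicate 4 was high for Esrra at 2969, and knockout replicate 1 was high for Ndufa3 at 1917.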

How the results depend on the processing

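Both the call of Mrps6 and the small medians moved with the processing. Members past the threshold numbered 0 with quantile normalization, limma without trend and the replicate block, and 0 in each of the 8 fits without 1 library. Over all genes, 573 calls became 292 without trend, 1557 with DESeq2, 7 with the replicate block and 163 to 502 when 1 library was left out. Calls in the related lists were 0 without trend, 4 with DESeq2, 0 with the block and 0 to 1 when 1 library was left out. Same-numbered libraries deviated with correlations of -0.20, -0.20, -0.04 and -0.29. The labels do not say whether a number marks a shared litter or batch. Correlations among 4 libraries per group cannot decide this. With total scaling the medians were 0.073 (members), 0.071 (large subunit) and 0.082 (small subunit) as the median of all genes moved to 0.06, and 50.1% of all calls were higher, beside 34.2% with the deposited scaling. The cause of these shifts was not tested.

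The sign of 13 members turned to positive with total scaling and that of 15 to negative with quantile normalization. Leaving out 1 library turned 4 to 15. Among the genes named by the rule, the turned values with total scaling were Mrpl1 0.017, Mrpl47 0.037, Mrpl32 0.050, Aurkaip1 0.014, Hcfc1 0.0089, Rps2 0.050 and Atp5b 0.031, and with quantile normalization Mrpl35 -0.038, Hcfc1 0.00146, Rps2 0.12 and Atp5b 0.027. Leaving out 1 library gave ranges of -0.027 to 0.051 (Mrpl4), -0.10 to 0.0082 (Mrpl1), -0.054 to 0.050 (Mrpl47), -0.016 to 0.040 (Mrpl33), -0.041 to 0.095 (Mrpl35), -0.084 to 0.075 (Mrpl32), -0.013 to 0.040 (Tufm), -0.11 to 0.12 (Lars2), -0.043 to 0.061 (Rps2) and -0.053 to 0.00037 (Atp5b). The scarcest member had 208 reads in its poorest library, and members with few reads carry the larger counting error. The lone comparison of 4 against 4 libraries, with other cell types present, limits what smaller differences could be seen.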

Other observations

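Many mitoribosomal genes share a start region with a neighbour on the other strand. A coding gene on the other strand, starting at most 1000 bases upstream of the member's start, was found for 18 of 78 members (23.1%). The share was 9.0% of all tested coding genes (1346 of 14948). Pairs that overlap at their starts, such as Mrpl46 and Mrps11, were not counted. Of the counted neighbours 17 were measured and 0 were called by limma, with 8 positive. The neighbour with the smallest p was Klc4, beside Mrpl2, at 3616 in the controls and 2810.3 in the knockouts (log2 difference -0.37, limma adjusted p of 0.0676), while Mrpl2 itself differed by 0.07. The closest of the counted pairs, Mrpl54 and Apba3, start 26 bases apart and differed by 0.05 and 0.10. Psma2 and Mrpl32, 75 bases apart, differed by -0.01 each. These neighbours were named after their values were seen.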
